A study of Mus musculus with 8 samples.

Results

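Pptc7 and 5 genes of mitochondrial clearance that its protein is linked to were followed in mouse liver on a high-salt diet. The 6 genes were Pptc7, Fbxl4, Bnip3, Bnip3l, Fundc1 and Pink1, taken by their symbols from a count table of 24317 genes, and all 6 were among the 13341 genes with enough reads to be tested. Pptc7 was chosen by its fold change and adjusted p in this same comparison and the other 5 by their known link to it, so the values of the 6 genes between the diets are a description and support nothing by themselves. RNA was sequenced from C57BL/6 livers in 8 libraries, 4 from mice fed normal chow and 4 from mice fed sodium-rich chow with 6% NaCl for 6 weeks. No genotype or agent other than the diet is labelled, and age and sex are not given in the labels. Whether every library stands for an animal of its own is not labelled, so the spread between libraries may be in part technical. The titles of the high-salt libraries begin with the letter N, which could be read as normal, and the diet labels were followed here.

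Mitophagy is the removal of whole mitochondria by autophagy, and liver, an organ dense in mitochondria, uses it on fasting and in hypoxia. BNIP3 and its relative NIX, which Bnip3l encodes, sit in the outer mitochondrial membrane and bind the autophagosome directly, as does FUNDC1, while the kinase PINK1 marks depolarised mitochondria by phosphorylating ubiquitin. In human and mouse cells FBXL4, the substrate-binding subunit of an SCF ubiquitin ligase, keeps BNIP3 and NIX low by sending them to degradation, and PPTC7, a phosphatase of the mitochondrial matrix that also has a pool at the outer membrane, takes part in that step. PPTC7 and FBXL4 thus act on the receptors as proteins, which RNA counts do not measure.

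All 6 genes are protein-coding, and their deposited coordinates (GRCm38) were identical to those of GENCODE M21. Pptc7 (ENSMUSG00000038582) lies on chromosome 5 from 122284365 to 122324281, forward strand, with 4719 bases of annotated exon. Fbxl4 (ENSMUSG00000040410) lies on chromosome 4 from 22357543 to 22434091, forward strand. Pink1 (ENSMUSG00000028756) is on the same chromosome from 138313409 to 138326307, reverse strand. Bnip3 (ENSMUSG00000078566) lies on chromosome 7 from 138890836 to 138909519, Bnip3l (ENSMUSG00000022051) on chromosome 14 from 66985239 to 67008877, and Fundc1 (ENSMUSG00000025040) on chromosome X from 17556564 to 17572325, all on the reverse strand.

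The promoters of Pptc7, the gene whose transcript differed between the diets, and of Bnip3, a textbook target of the hypoxia factor HIF-1, are shown for their start regions (RefSeq, GRCm38.p6). Capitals mark the core of the hypoxia response element, searched as ACGTG or GCGTG on both strands. Each window has 300 bases and runs 5′ to 3′ on the strand of the gene, chr5:122284148-122284447 on the forward strand for Pptc7 and chr7:138909457-138909756 on the reverse strand for Bnip3.
Pptc7: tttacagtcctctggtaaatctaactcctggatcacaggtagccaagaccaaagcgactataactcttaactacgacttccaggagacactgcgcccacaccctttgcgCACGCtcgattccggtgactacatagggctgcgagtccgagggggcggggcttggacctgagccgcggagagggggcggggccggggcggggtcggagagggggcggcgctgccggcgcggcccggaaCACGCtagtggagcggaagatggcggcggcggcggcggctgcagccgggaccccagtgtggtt
Bnip3: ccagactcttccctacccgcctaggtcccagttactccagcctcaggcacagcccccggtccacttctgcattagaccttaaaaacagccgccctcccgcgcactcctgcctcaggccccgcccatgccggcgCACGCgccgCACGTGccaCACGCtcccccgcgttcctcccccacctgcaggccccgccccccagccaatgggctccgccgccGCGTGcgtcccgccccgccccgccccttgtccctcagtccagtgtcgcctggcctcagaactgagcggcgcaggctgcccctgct
The Bnip3 window held 5 matches, a pair of which overlap in the run CACGTG, and the Pptc7 window held 2. Of the windows of the other genes, that of Pink1 held 1 and those of Fbxl4 and Fundc1 held 0, and Bnip3l was not in the promoter table. A match stood in 43.8% of all 32851 promoter windows, so its presence is common. The FoxO motif GTAAACA was in 3.65% of all windows and in 0 of the 5 searched here.

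Pptc7 was lower in every high-salt liver than in any liver on normal chow. As CPM, read counts per fixed total of reads after scaling by TMM factors, it was at 49.8, 52.4, 53.1 and 51.8 in normal chow 1 to 4 and at 26.7, 27.6, 34.6 and 37.7 in high salt 1 to 4. The groups did not overlap, and high salt 1 and 2 were lowest. The means were 51.8 ± 1.43 and 31.6 ± 5.38 CPM (SD, n = 4 per group), a fold of 0.611 with a 95% interval of 0.521 to 0.717. On the log2 scale the difference was -0.71 ± 0.11 (SE), with an adjusted p of 0.0192 by edgeR's quasi-likelihood test, the value for which the gene was chosen. It held the 8th smallest p of the 13341 genes. In the authors' deposited table Pptc7 has a log2 fold change of -0.72 and an adjusted p of 3.37e-06, and it is not marked as significant there.

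The spread of Pptc7 was unlike in the diets. Its coefficient of variation was 2.76% in normal chow, where the counts of 859 to 938 reads alone would give 3.34%, and 17.0% in high salt, where 450 to 684 reads would give 4.24%. These are descriptions over 4 values a diet, for a gene picked in this comparison. The adjusted p was above 0.05 without normal chow 2 (0.0644), without normal chow 3 (0.0661) or without high salt 1 (0.0642), while the log2 fold change lay between -0.81 and -0.64 when any 1 library was left out.

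The 3′ part of Pptc7 overlaps Rad9b, a relative of the DNA damage clamp subunit Rad9a, on the opposite strand. The shared exon sequence is 1002 bases, 21.2% of the exon length of Pptc7, and no source used here gives the strand setting of the counting. Rad9b had between 16 and 41 reads in a library. Its level was 1.77 ± 0.513 CPM on normal chow and 1.36 ± 0.378 CPM on high salt (log2 fold change -0.38 ± 0.29, adjusted p = 0.695 by edgeR). How reads of the overlap were counted, to either gene or to none, was not tested.

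**Figure D1:**
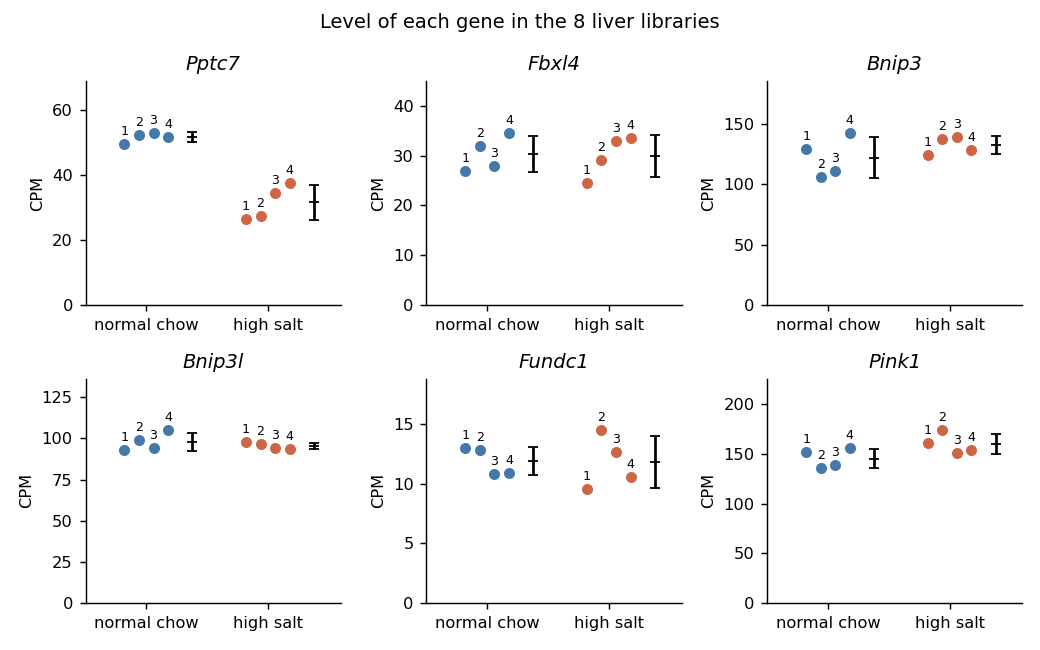
Level of each of the 6 genes (CPM, y axis from 0) in the 4 normal-chow (blue) and 4 high-salt (orange) libraries, each point 1 library with its number and the black bar the mean with its SD. Pptc7 lies between 49.8 and 53.1 CPM on normal chow and between 26.7 and 37.7 CPM on high salt, and the groups of the other 5 genes overlap.

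Fbxl4, the ligase subunit with which PPTC7 acts, overlapped between the diets. It was at 26.9, 31.9, 28.0 and 34.6 CPM in normal chow 1 to 4 and at 24.4, 29.1, 32.8 and 33.5 CPM in high salt 1 to 4. High salt held its lowest library and normal chow its highest. The means were 30.3 ± 3.55 and 29.96 ± 4.18 CPM, and the interval of the fold was 0.833 to 1.17. The log2 ratio of Pptc7 to Fbxl4 within a library, which does not depend on library scaling, was 0.89, 0.72, 0.92 and 0.58 in normal chow 1 to 4 and 0.13, -0.08, 0.08 and 0.17 in high salt 1 to 4. The ratio was lower in every high-salt library, with means of 0.78 ± 0.16 and 0.07 ± 0.11. This ratio holds the value by which Pptc7 was chosen and is given without a test.

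The receptor genes overlapped between the diets. Bnip3, whose protein is held down by FBXL4, was at 129, 106, 111 and 142 CPM in normal chow 1 to 4 and at 124, 137, 139 and 128 CPM in high salt 1 to 4. Normal chow held both the lowest and the highest of these libraries. The means were 122 ± 16.9 and 132 ± 7.41 CPM, with a log2 fold change of 0.11 ± 0.10. Bnip3l, the gene of NIX and a receptor known for clearing mitochondria from maturing red cells, was at 93.1, 98.8, 94.0 and 105 CPM in normal chow 1 to 4 and at 97.7, 96.5, 94.3 and 93.3 CPM in high salt 1 to 4. The high-salt values of Bnip3l fell inside the range of normal chow, with a coefficient of variation of 2.1%. The intervals of the fold, 0.935 to 1.25 for Bnip3 and 0.878 to 1.09 for Bnip3l, show how large a difference in either direction these libraries allow.

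The log2 ratio of Bnip3 to Bnip3l was 0.47, 0.10, 0.23 and 0.44 in normal chow 1 to 4 and 0.34, 0.51, 0.56 and 0.45 in high salt 1 to 4. The ratio overlapped between the diets (means 0.31 ± 0.18 and 0.47 ± 0.09). Fundc1, the receptor of hypoxic mitophagy, was at 12.98, 12.8, 10.8 and 10.9 CPM in normal chow 1 to 4 and 9.54, 14.45, 12.7 and 10.6 CPM in high salt 1 to 4. High salt held both its lowest and its highest library, and the fold had an interval of 0.812 to 1.22.

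Pink1, the kinase that marks damaged mitochondria, was at 152, 136, 138 and 156 CPM in normal chow 1 to 4 and at 161, 174, 151 and 154 CPM in high salt 1 to 4. High salt 1 and 2 were above every normal-chow library, and high salt 3 and 4 were within the normal-chow range. The means were 145 ± 9.94 and 159.9 ± 10.04 CPM, with a log2 fold change of 0.14 ± 0.08 (adjusted p = 0.589 by edgeR) and an interval of the fold from 0.974 to 1.24.

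Of the 6 genes, 1 was called lower (Pptc7) and 0 higher at an adjusted p below 0.05, against 0.15% of all tested genes called lower and 0.15% called higher. The same gene was the 1 member whose groups did not overlap, against 3.37% of all tested genes in that direction and 6.36% in either. Nothing is read from these counts, since the comparison chose the gene. The median log2 fold change of the 6 was -0.01, against 0.006 over all tested genes. The signs of Fbxl4, Bnip3l and Fundc1 (-0.02 ± 0.11, -0.03 ± 0.07 and -0.01 ± 0.14) turned with total-count scaling and when single libraries were left out, so no direction is given for them. In the authors' deposited table the adjusted p of these 5 genes lies between 0.695 for Pink1 and 0.996 for Fundc1.

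**Figure D2:**
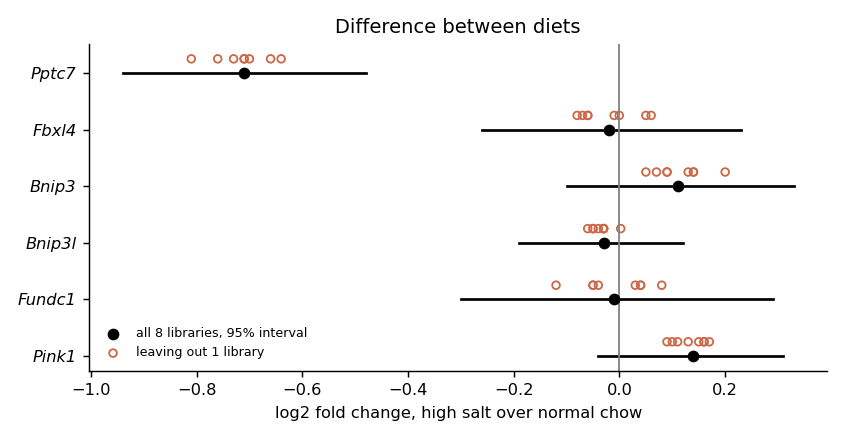
Log2 fold change of high salt over normal chow (x axis) for each gene, with its 95% interval over all 8 libraries (black) and the estimates with 1 library left out (open circles). The interval of Pptc7 runs from -0.94 to -0.48, and those of the other 5 genes include 0.

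Levels were compared between the genes as RPKM, the CPM value divided by kilobases of annotated exon. In normal chow Pink1 was at 54.4 ± 3.72 and Bnip3 at 53.8 ± 7.47 RPKM, which did not differ beyond their spread and changed places between libraries. Bnip3l followed at 25.3 ± 1.40 RPKM and held the next place in all 8 libraries. Pptc7 was at 11.0 ± 0.303 RPKM and Fbxl4 at 7.99 ± 0.936 RPKM, and in all 4 normal-chow libraries Pptc7 was the higher of the pair. In high salt Pptc7 was at 6.70 ± 1.14 and Fbxl4 at 7.89 ± 1.10 RPKM, and Fbxl4 was the higher in all 4 libraries. This change of places depends on the length used. With coding length (930 bases for Pptc7 and 1863 for Fbxl4, against 4719 and 3798 of exon) Pptc7 was above Fbxl4 in all 8 libraries. In high salt the values were then 34.02 ± 5.79 and 16.1 ± 2.25 RPKM. A change of length moves a gene by the same factor in every library, so this follows from the lengths and does not test the order. How reads of the overlap with Rad9b were counted bears on the level of Pptc7 too and was not tested. Fundc1 was at 5.04 ± 0.502 and 5.02 ± 0.929 RPKM. By exon length it was the lowest of the 6 in every library but high salt 2, where Pptc7 was at 5.84 RPKM and Fundc1 at 6.14 RPKM. All 6 lay above the median tested gene (2.79 RPKM), from 64.3% of tested genes below Fundc1 to 94.5% below Pink1. The order of Pink1, Bnip3 and Bnip3l depends on the length used in the same way. With coding length Bnip3 was the highest, then Bnip3l, then Pink1 in all 8 libraries. The normal-chow values by coding length were 217 for Bnip3, 149 for Bnip3l, 83.6 for Pink1, 55.7 for Pptc7, 25.5 for Fundc1 and 16.3 for Fbxl4.

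**Figure D3:**
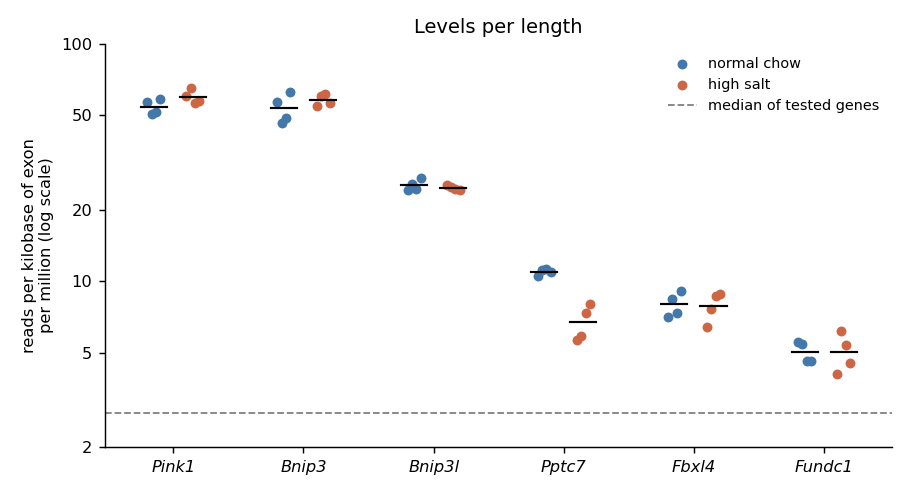
RPKM (log axis) of the 6 genes in each normal-chow (blue) and high-salt (orange) library, with the mean as a line and the median of tested genes (2.79) dashed. Pptc7 stands at 11.0 in normal chow, above Fbxl4 at 7.99, and at 6.70 in high salt, below Fbxl4 at 7.89. This order is by exon length. Division by coding length puts Pptc7 above Fbxl4 in all 8 libraries, a shift that follows from the lengths.

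Sequence shared with another gene, at the same locus or elsewhere, can move reads between genes. Runs of 75 bases from the transcripts were searched on either strand in the transcripts of all other genes of GENCODE M21. For Fbxl4 and Fundc1 0 runs were shared, and for Pink1 1.36% were, with Gm27646, a microRNA gene that overlaps its exons. For Pptc7 20.03% were shared, all of them with Rad9b, the gene that overlaps it on the opposite strand. For Bnip3l 16.9% were shared with its pseudogene Bnip3l-ps, which had 105 to 131 reads in a library and 6.63 ± 0.480 and 6.41 ± 0.559 CPM in the diets. For Bnip3 34.4% were shared, with several pseudogenes and with the antisense gene Gm45507. The latter overlaps 504 bases of Bnip3 exon on the opposite strand, 22.3% of its exon length. Of the genes sharing runs with Bnip3, Gm16439 (8.72% of runs) had 10 to 25 reads in a library and Gm9419 (0.31%) at most 1. AC160336.1 (20.4%), Gm45507 (12.9%) and Gm6532 (7.43%) were not found by name among the counted genes, so no reads can be given for them. The levels of Bnip3 and Bnip3l are uncertain by the reads counted to such copies, which was not tested.

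The libraries held between 16620368 and 18639685 counted reads (exact permutation p = 0.400 between diets, two-sided). Their TMM factors ran from 0.966 to 0.999 on normal chow and from 1.001 to 1.048 on high salt, without overlap. Hepatocyte markers were present throughout, with the 6-gene list at 124200 to 142400 CPM on normal chow and 128700 to 134500 CPM on high salt. Of its genes 0 were called, and unadjusted 1 was higher (Apoa1, 0.38 ± 0.15, adjusted p = 0.401 by edgeR) and 1 lower (Cps1, -0.58 ± 0.13, adjusted p = 0.0946), while Alb had -0.04 ± 0.07. In bulk tissue, fewer cells of a type and less RNA per cell cannot be told apart. Of 11 marker lists none separated the diets by summed level. Such a sum follows the genes of highest level, as Alb at 111800 CPM on normal chow in the hepatocyte list. The skeletal muscle and pancreas lists reached at most 3.65 and 0.438 CPM. In the Kupffer cell list 0 of 7 were called. Unadjusted, Marco was higher there (1.17 ± 0.33, adjusted p = 0.248 by edgeR) and Clec4f lower (-0.21 ± 0.09, adjusted p = 0.410). The erythroid list, relevant to Bnip3l, ran from 109 to 173 CPM on normal chow and 91.9 to 136 CPM on high salt, with 0 of 5 tested markers called, all 5 with a log2 fold change below 0 (median -0.32) and 1 of them lower unadjusted at p below 0.05. The B and plasma cell list ran from 16.1 to 39.6 CPM on normal chow and from 18.5 to 199 CPM on high salt, with 0 of 6 tested markers called. All 6 had fold changes above 0 (log2 0.97 to 1.98, median 1.41), 2 of them with an unadjusted p below 0.05. The list was at 22.3, 39.6, 16.2 and 16.1 CPM in normal chow 1 to 4 and at 18.5, 199, 60.9 and 67.8 CPM in high salt 1 to 4. High salt 2, 3 and 4 were above every normal-chow library and high salt 1 was within their range. The part of these cells in the level of Pptc7 was not tested.

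Around these genes, 13 lists of mitophagy, autophagy and mitochondrial upkeep held 190 tested genes, of which 1 fell and 0 rose at an adjusted p below 0.05 (background 0.15% in each direction, 0.3% in all). With no adjustment, 14 were higher and 17 lower at p below 0.05, 16.3% of the tested list genes. Of all tested genes 5.33% were higher and 5.6% lower (10.9% in either direction). Such counts are called unadjusted here. The lists were chosen with earlier results of these data known, so nothing is read from the difference between these shares. DESeq2 called 8 of the list genes, Bcl2l11 higher and Foxo1, Bcl2l1, Ctsb, Ddit4, Hspd1, Pdp2 and Ppargc1a lower, and limma-voom called 0. The list medians ran from -0.07 to 0.20 on the log2 scale.

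In the list of the ligase to which FBXL4 belongs, of 10 tested genes 0 were called by edgeR, and 0 had an unadjusted p below 0.05, with a median of 0.04. Skp1a, the adaptor that joins F-box proteins to the cullin, had the smallest p and was at 176 ± 12.2 and 167 ± 8.71 CPM. The scaffold Cul1 was at 55.9 ± 2.98 and 57.4 ± 3.12 CPM and the RING subunit Rbx1 at 29.7 ± 1.34 and 30.8 ± 3.67 CPM, both named for their role.

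Of 20 tested genes around PINK1 0 were called, with 0 higher and 2 lower unadjusted and a median of 0.01. Oma1, an inner-membrane protease that responds to loss of membrane potential, had the smallest p, at 15.4 ± 1.42 and 12.1 ± 1.85 CPM (log2 fold change -0.35 ± 0.12, adjusted p = 0.308). Among 13 other receptors and partners of FUNDC1 0 were called, with 1 higher and 1 lower unadjusted and a median of -0.05. Bcl2l1, an anti-apoptotic protein that binds mitophagy receptors, had the smallest p there, at 31.3 ± 4.33 and 22.9 ± 2.76 CPM (-0.45 ± 0.12, adjusted p = 0.159).

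Of 31 tested genes of the core autophagy machinery 0 were called, with 3 higher and 0 lower unadjusted and a median of -0.01. Map1lc3a, an LC3 protein of the autophagosome membrane, had the smallest p, at 17.7 ± 2.08 and 22.1 ± 3.03 CPM (0.33 ± 0.12, adjusted p = 0.316). Map1lc3b, the LC3 gene most used as a marker and named for that, was at 109 ± 12.9 and 114 ± 9.60 CPM. Of 7 autophagy adaptors 0 were called and 0 had an unadjusted p below 0.05 (median 0.02), the smallest p being that of Wdfy3, a scaffold of selective autophagy (0.20 ± 0.10). Of 15 genes of lysosomes and TFEB 0 were called, with 1 higher and 1 lower unadjusted and a median of 0.01. Ctsb, the protease cathepsin B, was at 731 ± 52.6 and 610 ± 36.0 CPM (-0.26 ± 0.08, adjusted p = 0.260).

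The lists of FoxO and of hypoxia factors, each with targets of these factors, gave 1 call by edgeR. In the list of FoxO factors and their targets, Foxo1, a transcription factor that insulin restrains, fell from 67.2 ± 9.49 to 46.8 ± 2.13 CPM (-0.52 ± 0.10, adjusted p = 0.0432), the 1 called gene of 10 tested (median -0.06). When 1 library was left out the call of Foxo1 held only without normal chow 3, and the other 7 fits gave adjusted p from 0.0501 to 0.142. It was lost also with limma-voom (0.0604), with total-count scaling (0.0876) and with the replicate number as a block (0.0817). Foxo3, the FoxO factor known to drive Bnip3 in muscle and named for that, was at 84.0 ± 2.16 and 72.6 ± 8.84 CPM (-0.21 ± 0.09, adjusted p = 0.411). The FoxO list, with Foxo1 in it, summed to 309 to 327 CPM on normal chow and to 259 to 294 CPM on high salt. These sums did not overlap and were not tested. Both Foxo1 and Foxo3, with the levels given above, enter them. Unadjusted, 1 gene of the list was higher and 3 were lower, Foxo1 among the latter. Of the 10 tested genes 5 had a log2 fold change above 0, so the lower sum is not a fall of the whole list. Among the lists of mitophagy, autophagy and mitochondrial upkeep, only the FoxO and biogenesis lists had sums without overlap. Of 20 tested genes of the hypoxia list 0 were called, with 3 higher and 3 lower unadjusted and a median of 0.03. Ddit4, an inhibitor of mTORC1 that hypoxia induces, had the smallest p, at 35.8 ± 10.2 and 20.6 ± 4.13 CPM (-0.80 ± 0.22, adjusted p = 0.217). Hif1a was at 40.9 ± 1.55 and 43.1 ± 2.49 CPM, and its target Vegfa at 109 ± 3.23 and 113 ± 5.61 CPM, both named for their role.

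Among 12 tested genes of the list of mitochondrial phosphatases and kinases, without Pptc7, 0 were called, with 0 higher and 3 lower unadjusted and a median of -0.01. Pdp2, a phosphatase that activates pyruvate dehydrogenase, had the smallest p, at 42.1 ± 6.13 and 32.2 ± 1.66 CPM (-0.39 ± 0.10, adjusted p = 0.156). Ppm1k, a phosphatase of the matrix that acts on the branched-chain ketoacid dehydrogenase and is named for its kinship, was at 96.6 ± 12.3 and 106 ± 20.6 CPM. Of 14 genes of coenzyme Q synthesis and matrix proteins linked to PPTC7 0 were called, with 0 higher and 2 lower unadjusted and a median of -0.07. Coq10b, a coenzyme Q binding protein, had the smallest p (-0.20 ± 0.08). Timm50, an import protein on which PPTC7 acts in mouse cells, was at 30.8 ± 2.79 and 29.0 ± 2.47 CPM. Coq7, a hydroxylase of coenzyme Q synthesis that the yeast relative of PPTC7 dephosphorylates, was at 16.7 ± 2.28 and 14.96 ± 0.920 CPM.

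Of 16 genes of mitochondrial biogenesis and content 0 were called, with 0 higher and 2 lower unadjusted and a median of 0.00. Those were Hspd1, a matrix chaperone, at 574 ± 44.7 and 455 ± 11.5 CPM (-0.34 ± 0.08, adjusted p = 0.132), and Ppargc1a, the coactivator PGC-1 alpha, at 26.2 ± 5.31 and 16.2 ± 2.92 CPM (-0.69 ± 0.16, adjusted p = 0.136), the latter chosen after its values were seen. The biogenesis list summed to 1139 to 1196 CPM on normal chow and to 1042 to 1082 CPM on high salt, without overlap. Hspd1 had the highest level in that list, and the sum was not tested. Of 14 genes of fission, fusion and mitochondrial proteases 0 were called, with 1 higher and 0 lower unadjusted (Clpx, a matrix unfoldase, 0.30 ± 0.11) and a median of -0.02. The BCL2 family, to which BNIP3 and NIX are related by a BH3-like stretch, had the highest list median, 0.20, with 0 of 13 called and 4 higher and 1 lower unadjusted. Bcl2l11, the pro-apoptotic protein BIM, was at 8.38 ± 0.689 and 13.2 ± 2.80 CPM (0.65 ± 0.15, adjusted p = 0.107).

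**Figure D4:**
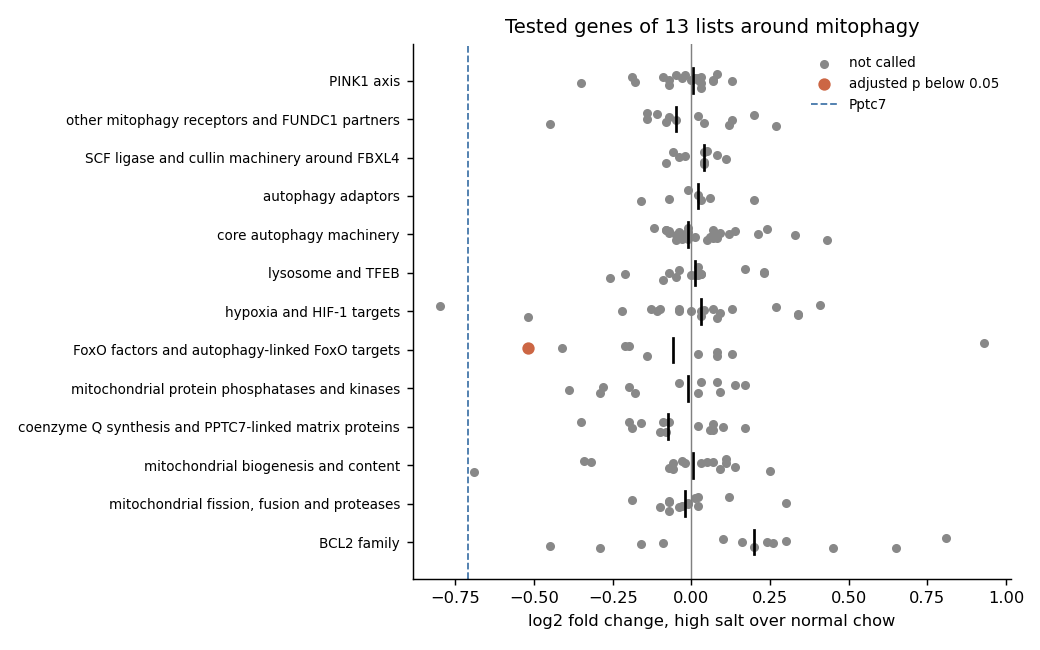
Log2 fold change of high salt over normal chow (x axis) for each tested gene of 13 lists (rows), with the list median as a black bar, the called gene (Foxo1) in orange and Pptc7 as a dashed line at -0.71. The list medians lie between -0.07 and 0.20.

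Profiles were compared with that of each gene by the mean absolute difference of log2 CPM over the 8 libraries, each gene centred on its own mean, among genes with at least 10 CPM on average. The 5 nearest to Pptc7 were Cps1 (0.0666), Aldh1l1 (0.0764), Cyp2c70 (0.0894), Ttc39b (0.0993) and Tent5c (0.107). Cps1, the entry enzyme of the urea cycle and one of the hepatocyte markers above, was at 7012 ± 508 and 4690 ± 968 CPM. Aldh1l1, a folate enzyme, was at 1349 ± 56.3 and 919 ± 198 CPM. Cyp2c70, which makes muricholic acids in mouse liver, was at 1067 ± 112 and 691 ± 136 CPM. Ttc39b, the only called gene among the 5, was at 96.5 ± 5.37 and 65.15 ± 6.80 CPM (adjusted p = 0.0192 by edgeR). Tent5c was at 19.9 ± 1.45 and 13.6 ± 1.59 CPM.

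In high salt 1 to 4, log2 CPM relative to the gene's own mean was -0.59, -0.55, -0.22 and -0.09 for Pptc7. It was -0.52, -0.55, -0.19 and 0.06 for Cps1, and -0.60, -0.50, -0.09 and 0.04 for Aldh1l1. All 3 were lowest in high salt 1 and 2, as were Cyp2c70 and Tent5c. Ttc39b, at -0.30, -0.45, -0.31 and -0.09, was lowest in high salt 2 and 3. Such likeness is a description over 8 libraries that share their scaling, and it was sought among 7252 genes.

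The 2 nearest genes were also taken for each of the other members. They were Afmid and Ormdl1 for Fbxl4 and Eif1 and Rabac1 for Bnip3. For Bnip3l they were Cand1, the exchange factor of cullin ligases, and Azi2. For Fundc1 they were the ribosomal protein genes Rps18 and Rpl37rt, and for Pink1 Abhd17a and Ube2z. Their adjusted p-values by edgeR ran from 0.547 for Eif1 to 0.975 for Ormdl1.

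**Figure D5:**
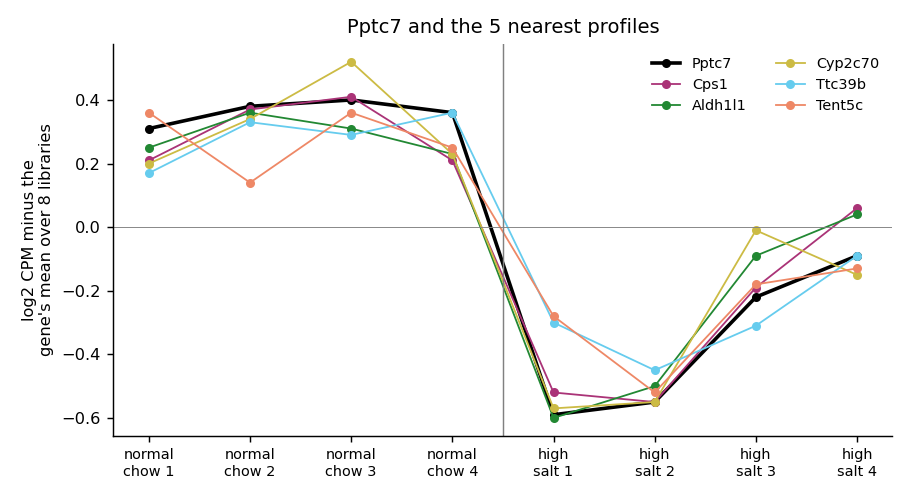
Log2 CPM minus the gene's mean over the 8 libraries (y axis) for Pptc7 (black) and the 5 nearest genes, by library (x axis). Lines only join the points of a gene, and high salt 1 and 2 hold the lowest value of Pptc7 (-0.59 and -0.55), Cps1, Aldh1l1 and Cyp2c70.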

How the data were processed

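The authors deposited raw read counts for each gene and library as whole numbers without normalization, per the file headers. Tools listed in the submitters' processing notes are HTSeq 0.6.0, HISAT2 2.1.0 and StringTie 1.3.2d, with the build GRCm38 and no role for any tool. The sources used here do not give the strand setting or annotation release. Per the file headers, the authors' deposited table further holds their fold (ratio), log2 fold change, p-value and adjusted p, used only for comparison.

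Counts were tested with edgeR 4.0.16 (R 4.3.3): TMM factors, filterByExpr, a robust quasi-likelihood fit of diet on all 8 libraries, and Benjamini-Hochberg adjustment over 13341 genes, two-sided, with calls at an adjusted p below 0.05. Standard errors came from the fold change and F, and intervals from the t distribution of the fit's degrees of freedom. The common biological coefficient of variation was 0.147, and the script was tested on simulated data. The coefficients of variation that read counts alone would give cover counting error only. Libraries of a group differed by more than sampling noise (chi-square over degrees of freedom 9.69 to 36.7), and each counted as 1 sample.

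Members and lists were chosen with earlier results of these data known. Named genes were the members, up to 3 called genes or else the gene of smallest p of each list, the nearest profiles (predicted genes left out), and genes sharing exons with a member. Others are said to be named for their role. Per-length levels used union exon lengths of GENCODE M21. Alternatives were other normalizations and filters, DESeq2 1.42.0, limma-voom (limma 3.58.1), a replicate block, and leaving out each library.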

Additional observations from a re-analysis of the deposited data

Results flagged for a closer look

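By Dixon's ratio at its 95% limit, 3 of 40 sets of 4 values had a library far from the rest, where chance gives about 1 in 20. None concerned the 6 genes, and all were sums of marker lists near 0 CPM. The rate of 1 in 20 assumes continuous values. Sums of few reads, some of them tied at 0, are not such values, so the rate cannot judge these lists. The neutrophil list was at 3.28 CPM in high salt 2, against 1.54 to 1.76 CPM in the other high-salt libraries. The skeletal muscle list was at 0 CPM in high salt 1, against 0.109 to 0.117 CPM in the others. The pancreas list had 0.438 CPM in high salt 2, against 0 CPM in the others.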

How the results depend on the processing

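The log2 fold change of Pptc7 lay between -0.81 and -0.64 in all 16 alternatives, and its adjusted p between 8.37e-08 and 0.0661. It stayed below 0.05 in 13, the exceptions being the fits without normal chow 2 (-0.71), normal chow 3 (-0.70) or high salt 1 (-0.64). Same-numbered libraries did not deviate together (correlations of -0.149, -0.195, 0.0865 and 0.00515, not each the highest for its library), and with the number as a replicate block Pptc7 had -0.72 with an adjusted p of 0.0435. Bnip3 and Pink1 kept their sign and were called in 0 alternatives. With total-count scaling Fbxl4 had 0.04, Bnip3l 0.03 and Fundc1 0.06, with upper-quartile scaling Fundc1 had 0.0018, and without single libraries they ran from -0.08 to 0.06, -0.06 to 0.0024 and -0.12 to 0.08. Total-count scaling leaves out the TMM factors, which were higher in every high-salt library than in any on normal chow. The cause of these changes of sign was not tested.

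Over all genes 40 were called, 20 higher and 20 lower. The counts were 220 (89 and 131) without a filter, 238 (93 and 145) by DESeq2, 17 (8 and 9) by limma-voom, 11 (8 and 3) with the replicate block, and 32 (21 and 11) with total-count scaling. Leaving out 1 library gave 4 to 57 genes, 2 to 25 higher and 1 to 32 lower, and the fits lacking normal chow 2 or 3 gave 4 and 11, those lacking high salt 1 or 2 gave 5 and 18. Without a filter 6 list genes were called (Foxo1, Bcl2l1, Bcl2l11, Hspd1, Pdp2 and Ppargc1a). Of 182 list medians recomputed, 165 moved by less than the spread between libraries and 17 did not. Among the latter was the PINK1 list with total-count scaling, at 0.07 against 0.01 in the main fit. List medians were not recomputed with the DESeq2 and limma-voom tests. With coding length, the normal-chow RPKM became 217.2 for Bnip3, 149.4 for Bnip3l, 83.6 for Pink1, 55.7 for Pptc7, 25.5 for Fundc1 and 16.3 for Fbxl4, by construction. A level of Pptc7 rests on 450 to 938 reads and one of Fundc1 on 161 to 264.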
